A study of Homo sapiens with 6 samples.

Results

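The genes described here are 48 spindle, kinetochore and cytokinesis genes, chosen by gene symbol as a list of mitotic machinery, with earlier results of these arrays known, out of 12318 genes tested. All 48 were found on the arrays, with 95 probe sets in total, and all 48 passed the filter on dim probe sets. The level of a gene was read at its brightest probe set, the one with the highest mean log2 signal over the 6 arrays. The other probe sets served as a check. The study measured total RNA of Flp-In T-REx 293 cells, an HEK293 derivative of human embryonic kidney origin with a site for placing a transgene, on one-colour Affymetrix arrays. The 3 clones used all carried a stable inducible GFP transgene, which was not switched on in either group. Each clone was given siRNAs against TET1, TET2 and TET3 at once on 1 array and a non-targeting siRNA pool on another, with RNA taken at 96 h, so that 3 arrays stood in each group and each clone formed a pair. The 3 TET enzymes oxidise 5-methylcytosine in DNA, and because the siRNAs were given together, their single contributions cannot be told apart.

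In mitosis, kinetochores assemble on the centromeres and bind the microtubules of the spindle. The spindle assembly checkpoint holds back the anaphase-promoting complex until every chromosome is attached, and motor proteins and the chromosomal passenger complex then drive segregation and the closing of the cleavage furrow. Transcripts of these genes rise in G2 and mitosis in dividing cells, largely through promoters that pair CCAAT boxes, bound by NF-Y, with a CHR element (cell cycle genes homology region), bound by the DREAM and MYB-MuvB complexes.

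The CHR and CCAAT letters were looked up in RefSeq promoter windows (GRCh38.p14), from 250 bases before to 50 bases after each gene start, which held an entry for 41 of the 48 genes. A CHR match, searched as TTTGAA or TTCGAA on both strands, was present in 32 of the 41 (78%), against 11% of 10070 promoters of tested genes and 16.6% of all 27305 promoters in the table. CCAAT on either strand was present in 31 of the 41 (75.6%), against 36.8% of the tested genes and 35.7% of all promoters. Both were present in 26 (63.4%), against 4.71% and 6.58%. A match of these letters is a description and not a measured binding site. Of the 30 promoters of members with a lower level in the knockdown 25 had a CHR match, and of the 11 with a higher level 7 had one. CCAAT was present in 22 and 9 of these, and both in 19 and 7. None of these differences was tested.

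To show what these letters look like, the starts of MKI67 and NUSAP1 are given from 120 bases before to 25 bases after the gene start, 5′ to 3′ on the gene's strand. They are the members with the smallest p that held both motifs. Capitals mark the CHR and CCAAT matches, the latter also as ATTGG on the other strand. MKI67 (chr10:128126399-128126543, minus strand) had CHR matches from -47 to -42 and from -29 to -24, the second sharing 1 base with the CCAAT match that follows. NUSAP1 (chr15:41332761-41332905, plus strand) had 1 CHR match, from base 14 to base 19 after the start.
MKI67: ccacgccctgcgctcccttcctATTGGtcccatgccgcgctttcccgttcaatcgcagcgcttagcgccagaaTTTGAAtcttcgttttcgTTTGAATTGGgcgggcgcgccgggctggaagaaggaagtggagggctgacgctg
NUSAP1: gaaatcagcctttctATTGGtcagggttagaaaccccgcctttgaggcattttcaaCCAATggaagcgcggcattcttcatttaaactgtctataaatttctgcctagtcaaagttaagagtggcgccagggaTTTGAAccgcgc

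For the other 2 members that passed the test, SKA1 and CENPF, only the CHR match and its neighbours are given, with the match in capitals. SKA1 (chr18:50375070-50375089, plus strand) held it from base 35 to base 40 and no CCAAT in the window. CENPF (chr1:214603225-214603244, plus strand) held it from base 41 to base 46 and had 4 CCAAT matches.
SKA1: cggcgggcggTTTGAAtttt
CENPF: ctgcgggcagTTTGAAttag

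The arrays matched their labels. TET1, TET2 and TET3 were left at 17.9%, 46.8% and 42.9% of the control signal, each lower in 3 of 3 clones. The 7 markers listed for the HEK293 lineage, VIM and NEFL among them, all passed the filter, with a summed signal of 60286 to 72459 in the knockdown and 70288 to 75288 in the control; its part in the results below was not tested. Of markers of other cell types, 0 of 3 for blood cells and 0 of 2 for hepatocytes passed. For endothelium 1 of 3 passed (PECAM1, signals 147 to 210), and for fibroblasts 1 of 3 (COL1A1, 864 to 1074 in the knockdown and 973 to 1289 in the control). Ratios of 3′ to 5′ signal at the ACTB control probe sets, a measure of RNA integrity, were 1.89 to 2.15 in the knockdown and 2.01 to 2.07 in the control, and those of GAPDH were 1.05 to 1.07 and 1.04 to 1.08. Any 2 arrays correlated at 0.934 to 0.944 in log2 signal over all probe sets. The number of arrays, 3 in each group, limits the precision.

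Most of the 48 genes had slightly lower signals after TET siRNA, and 4 of them passed the test: MKI67, NUSAP1, SKA1 and CENPF all fell. The test was limma on log2 signals with the clone as a term, adjusted with Benjamini-Hochberg over all tested probe sets, with an adjusted p under 0.05 as the threshold. Among all 12318 tested genes, 0.836% fell and 0.479% rose by the same rule, and no member rose. Without the clone in the fit no member passed (smallest limma adjusted p 0.226), where 2 of 12318 genes (0.0162%) did. At an unadjusted p under 0.05, 13 members were lower and 2 higher with the clone in limma, against 7.53% and 8.61% of all tested genes. Without the clone 9 members stood at that p, against 6.96% of all tested genes. Leaving out clone 1 kept 2 members past the adjusted threshold, where 0.585% of all tested genes passed in either direction. Leaving out clone 2 gave 5 members (AURKB joined) and 3.08% of all tested genes, and leaving out clone 3 gave 0 members and 0.325%. In RNA of whole cultures, fewer cells in mitosis and less RNA per mitotic cell cannot be told apart.

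Of the 48 members, 35 had a difference below 0, which is 72.9% against 48.1% of all tested genes. The median difference was -0.081 on the log2 scale, with quartiles of -0.15 and 0.012, against a median of 0.0070 over all tested genes. The median was similar in each clone, with member medians of -0.080, -0.10 and -0.099 in clones 1, 2 and 3. All tested genes had medians of 0.010, 0.021 and -0.011. The share of members below 0 was less even, at 72.9%, 70.8% and 62.5% in clones 1, 2 and 3. Among all tested genes it was 48.3%, 46.4% and 51.8%, so clone 3 stood nearest to its background. In 21 members the knockdown array was lower than the control array of the same clone in 3 of 3 clones (18% of all tested genes), and in 5 it was higher in 3 of 3 (19.9%). The 3 knockdown arrays all lay below the 3 control arrays for 13 members (6.41% of all tested genes) and all above for 2 (6.77%). The 44 members that did not pass had a median of -0.072, with 31 below 0. These counts describe the list and do not test it. The median SE was 0.075 for the members and 0.10 for all tested genes, and no background of like SE or brightness was used.

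**Figure D1:**
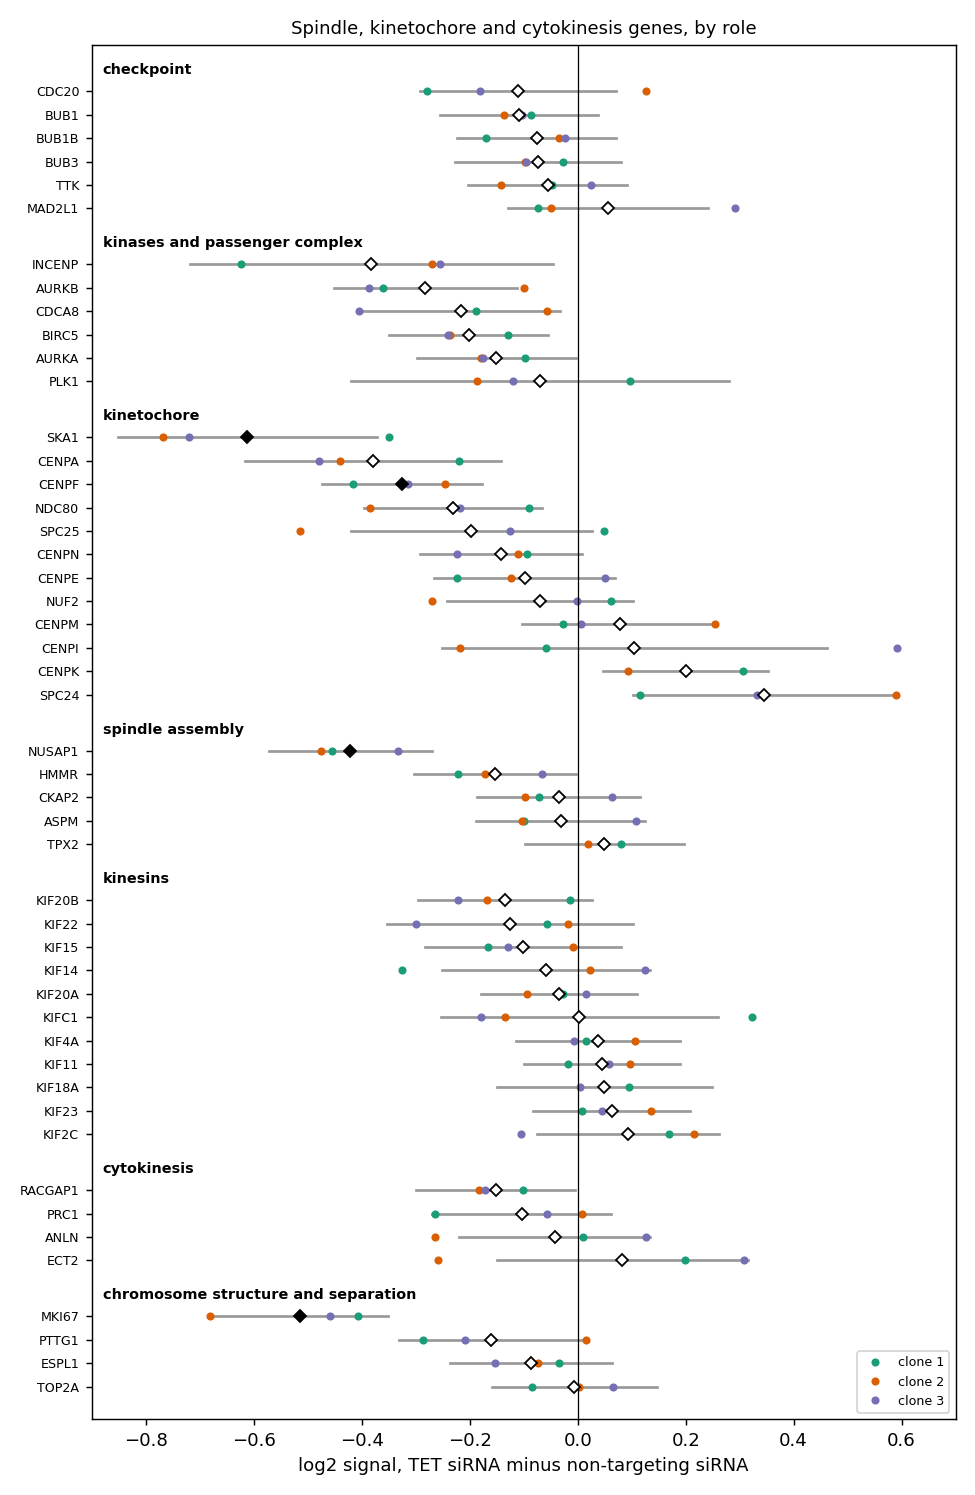
Log2 difference in signal (x axis, TET siRNA minus non-targeting siRNA) of each of the 48 genes at its brightest probe set, in 7 groups by role. Coloured points are the 3 clones, diamonds the mean difference and grey bars its 95% interval from limma with the clone in the fit; filled diamonds are the 4 genes with an adjusted p under 0.05, all below 0.

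Kinetochore genes held both the lowest and the highest value of the list. Of 12 genes, 8 had a difference below 0, 2 passed as lower and none as higher, with a median of -0.12. SKA1 (Entrez gene 220134) is a subunit of the SKA complex, which tracks microtubule ends and couples them to the outer kinetochore. Its signals were 1335, 1014 and 1027 in clones 1, 2 and 3 under TET siRNA and 1700, 1727 and 1691 under non-targeting siRNA. The control arrays lay close together and every knockdown array lay below them, that of clone 1 least. The means were 1125 ± 181 and 1706 ± 18.5 (SD, n = 3 each), so that 65.4% of the control level was left (95% interval 55.4 to 77.2%; log2 -0.61, SE 0.11, limma adjusted p = 0.0253 with the clone and 0.320 without it).

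CENPF (Entrez gene 1063) encodes a large coiled-coil protein of the outer kinetochore that accumulates in G2. It had signals of 7302, 8281 and 8710 in the knockdown and 9750, 9814 and 10835 in the control, so the groups did not overlap. The means were 8098 ± 722 and 10133 ± 609 (SD, n = 3 each), with 79.8% of the control level left (95% interval 72.0 to 88.4%; log2 -0.33, SE 0.07, limma adjusted p = 0.0475 with the clone and 0.525 without it). This call lay just inside the threshold and was lost under 8 of 12 alternatives. A second CENPF probe set had -0.37 (SE 0.09, limma adjusted p = 0.0768), lower in 3 of 3 clones. The third, which was dim, had -0.088 (SE 0.27). With probe sets of shared probes left out, the gene was read at this dim probe set.

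At the other end, SPC24 (Entrez gene 147841), a subunit of the NDC80 complex that binds microtubules directly, had the highest difference of all members. Its signals were 1419, 1695 and 1454 in the knockdown and 1310, 1127 and 1154 in the control, higher in 3 of 3 clones with no overlap. The difference of 0.35 (SE 0.11) did not pass (limma adjusted p = 0.179). The other subunits of the same complex stood on the other side of 0, with NDC80 at -0.23, SPC25 at -0.20 and NUF2 at -0.070, none of which passed. CENPK, of the constitutive centromere network, had 9290, 6365 and 6758 in the knockdown and 7516, 5967 and 5881 in the control. It was higher in 3 of 3 clones although the groups overlapped, and its difference of 0.20 (SE 0.07) did not pass (limma adjusted p = 0.217).

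CENPI, of the same network, had 1038, 386 and 786 in the knockdown and 1081, 449 and 522 in the control. Its difference of 0.10 (SE 0.16) came from clone 3 alone, since the values of clones 1 and 2 were -0.059 and -0.22, and its second probe set had -0.15. CENPA, the histone H3 variant that marks centromeres, had -0.38 and was lower in 3 of 3 clones (limma adjusted p = 0.132). The remaining kinetochore genes CENPN, CENPE and CENPM had differences of -0.14, -0.099 and 0.078.

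**Figure D2:**
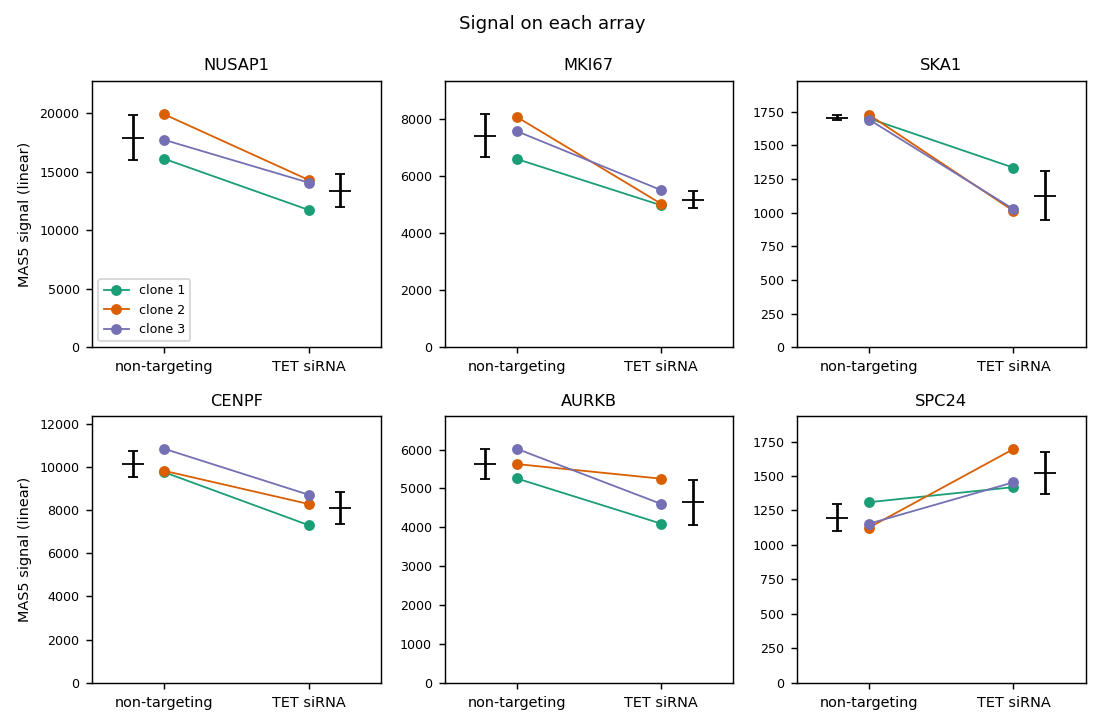
MAS5 signal on a linear axis from 0 for the 4 genes that passed and for AURKB and SPC24, which did not. Points joined by a line are the control and knockdown arrays of 1 clone, and black marks are the group mean ± SD of 3 arrays; in all 6 panels the groups do not overlap, and SPC24 is the panel with higher knockdown signals.

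Among spindle assembly proteins, 4 of 5 genes had a difference below 0 and 1 passed. NUSAP1 (Entrez gene 51203), which binds and bundles spindle microtubules around chromosomes, had signals of 11730, 14290 and 14059 in the knockdown and 16085, 19878 and 17702 in the control. Clone 1 was lowest in both groups and the drop was of like size in each clone, at -0.46, -0.48 and -0.33. The means were 13360 ± 1416 and 17889 ± 1904 (SD, n = 3 each), so that 74.7% of the control level was left (95% interval 67.3 to 82.9%; log2 -0.42, SE 0.07, limma adjusted p = 0.0168 with the clone and 0.454 without it). A second NUSAP1 probe set fell as well, by 0.43 on the log2 scale (SE 0.09, limma adjusted p = 0.0463), so that both of its tested probe sets passed.

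HMMR, a spindle protein that is also a hyaluronan receptor, had 12670, 13845 and 13663 in the knockdown and 14771, 15588 and 14299 in the control, without overlap. Its difference of -0.15 (SE 0.07) did not pass (limma adjusted p = 0.340), and its second probe set had -0.20. CKAP2 and ASPM had -0.036 and -0.032. TPX2, which activates Aurora A on the spindle, had 0.049 and was higher in 3 of 3 clones.

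Of the genes for chromosome structure and separation, all 4 had a difference below 0 and 1 passed. MKI67 (Entrez gene 4288) encodes the Ki-67 antigen, a marker of dividing cells that coats mitotic chromosomes. Its brightest probe set had signals of 4978, 5034 and 5510 in the knockdown and 6597, 8071 and 7571 in the control. Every knockdown array lay below every control array. The means were 5174 ± 293 and 7413 ± 749 (SD, n = 3 each), with 70.0% of the control level left (95% interval 62.5 to 78.4%; log2 -0.52, SE 0.07, limma adjusted p = 0.0080 with the clone and 0.226 without it).

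The other 3 tested probe sets of MKI67 did not show a drop of that size. They had -0.13 (SE 0.08), -0.055 (SE 0.12) and -0.020 (SE 0.10), and none passed. PTTG1, or securin, the inhibitor of separase, had 19428, 25044 and 23364 in the knockdown and 23694, 24789 and 27008 in the control. Its arrays overlapped and its difference of -0.16 (SE 0.08) did not pass (limma adjusted p = 0.384). ESPL1, separase itself, had -0.087, and TOP2A, the topoisomerase that untangles sister chromatids, had -0.0059.

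The mitotic kinases and the chromosomal passenger complex stood below 0 as a whole, with 6 of 6 genes negative, 5 of them lower in 3 of 3 clones and a median of -0.21, though none passed. AURKB, the kinase of the passenger complex, had 4097, 5253 and 4606 in the knockdown and 5259, 5628 and 6022 in the control, and the highest knockdown array lay just under the lowest control array. Its difference was -0.28 (SE 0.08, limma adjusted p = 0.121), and it passed without clone 2 (-0.37, limma adjusted p = 0.0115) but not without clone 1 (-0.24, 0.332) or clone 3 (-0.23, 0.615). Its other tested probe set, which was dim, had 0.20 (SE 0.26), and the mean of both was -0.044. BIRC5, or survivin, of the same complex, had 12346, 12274 and 12529 in the knockdown and 13511, 14459 and 14799 in the control, without overlap (-0.20, SE 0.07, limma adjusted p = 0.195). Its 3 other tested probe sets had -0.16, -0.13 and -0.0092, and the mean of all was -0.12. The remaining subunits INCENP and CDCA8 (borealin) had -0.38 and -0.22, the kinase AURKA, which matures spindle poles, had -0.15, and PLK1 had -0.070 with clone 1 on the positive side.

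The checkpoint genes had small differences, 5 of 6 below 0 with a median of -0.075 and none past the threshold at its brightest probe set. BUB1, a kinase that recruits checkpoint proteins to kinetochores, had 5012, 5255 and 5355 in the knockdown and 5325, 5780 and 5748 in the control (-0.11, SE 0.07, limma adjusted p = 0.504). CDC20, the activator of the anaphase-promoting complex that the checkpoint holds, had 7447, 7756 and 7893 in the knockdown and 9034, 7104 and 8947 in the control, higher in clone 2 and lower in the others (-0.11, SE 0.08, limma adjusted p = 0.592). BUB1B, TTK and MAD2L1 had -0.076, -0.055 and 0.056.

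BUB3, the WD40 protein that carries BUB1 and BUB1B to kinetochores, gave different answers at its probe sets, and was singled out after its values were seen. Its brightest probe set had 31135, 30342 and 29599 in the knockdown and 31732, 32472 and 31640 in the control, a difference of -0.074 (SE 0.07). The next had -0.053 (SE 0.07). The third in brightness had 11161, 12984 and 12469 in the knockdown and 16976, 18751 and 18743 in the control, and fell by 0.57 on the log2 scale (SE 0.07, limma adjusted p = 0.0028 with the clone and 0.10 without it). The fourth had 6748, 8288 and 8047 against 10444, 11761 and 11860, and fell by 0.56 (SE 0.07, limma adjusted p = 0.0028 with the clone and 0.184 without it). Both were lower in 3 of 3 clones, with no overlap of the groups. The dimmest BUB3 probe sets had 0.28 (SE 0.11) and 0.086 (SE 0.26). The gene thus counts as not called by its brightest probe set, while 2 of its 6 tested probe sets passed as lower.

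**Figure D3:**
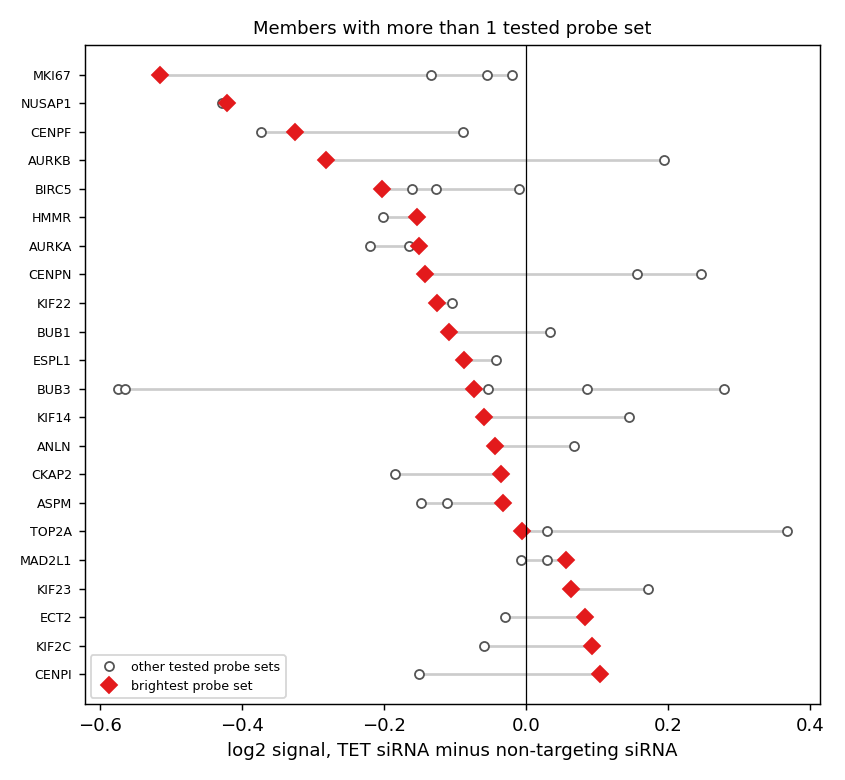
Log2 difference in signal (x axis, TET siRNA minus non-targeting siRNA) at every tested probe set of the 22 members that have more than 1. Red diamonds are the brightest probe sets and open circles the others; the NUSAP1 probe sets lie together near -0.42, whereas those of MKI67 and BUB3 are spread out.

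Over the list, 84 of the 95 probe sets were tested and 7 of these passed, all lower: the brightest of the 4 called genes, the second of NUSAP1 and the pair of BUB3. Of the 22 members with several tested probe sets, 11 had the same sign at all of them, 10 of these below 0, and 11 had both signs. Of the 30 further probe sets of members with a lower brightest probe set, 20 were also below 0. The same counts over all 27306 tested probe sets are not given here. These counts thus describe the list and do not set it apart from other genes. The brightest probe sets of SKA1, CENPF and MKI67 are of types whose probes can be shared between transcripts, and SKA1 and MKI67 have no tested probe set of another type. With such types left out NUSAP1 was the 1 member that passed, of 34 still tested, and 162 of 9588 genes passed.

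Kinesins did not share the shift. Of 11 motor genes, 5 had a difference below 0, the median was 0.0029 and none passed, with values from -0.13 to 0.093. KIF20B, a motor of late mitosis and cytokinesis, had the smallest p, with 4526, 3842 and 4172 in the knockdown and 4572, 4314 and 4863 in the control (-0.13, SE 0.07, limma adjusted p = 0.448). KIF15, which works with KIF11 to keep the spindle bipolar, had 2102, 2363 and 2169 against 2358, 2379 and 2372 (-0.10, SE 0.08, limma adjusted p = 0.633), with control arrays close together. KIF11, the motor that separates spindle poles, had 0.045 with a 95% interval of -0.099 to 0.19. KIF2C, KIF23, KIF18A and KIF4A had 0.093, 0.063, 0.049 and 0.038. KIFC1 had 0.0029, with 0.32 in clone 1 and -0.13 and -0.18 in clones 2 and 3. KIF22, KIF14 and KIF20A had -0.12, -0.059 and -0.035. Whether kinesins differ from the other roles was not tested.

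Cytokinesis genes had a median of -0.073, with 3 of 4 below 0 and none called. RACGAP1, a subunit of the centralspindlin complex of the midzone, had 14698, 14815 and 14532 in the knockdown and 15758, 16814 and 16364 in the control, without overlap (-0.15, SE 0.07, limma adjusted p = 0.333). PRC1, which bundles the microtubules of the midzone, had 14735, 20182 and 19472 against 17692, 20070 and 20244, and clone 1 alone was clearly lower (-0.10, SE 0.08, limma adjusted p = 0.581). ANLN (anillin), of the contractile ring, had -0.043. ECT2, the exchange factor that activates RhoA at the furrow, had 0.083, with -0.26 in clone 2 and 0.20 and 0.31 in clones 1 and 3.

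The size of a member's difference was partly shared between clones, whose pairs have no array in common. Across the 48 genes the differences correlated at a Pearson r of 0.39 between clones 1 and 2, 0.51 between clones 1 and 3 and 0.52 between clones 2 and 3 (Spearman 0.30, 0.52 and 0.42). Across all 12318 tested genes the Pearson values were 0.085, 0.20 and 0.21, and across the 44 members that did not pass they were 0.18, 0.38 and 0.30. These are descriptions across genes, which are not independent replicates, and all tested genes had a larger median SE than the members.

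Levels of the members also differed between clones within a group. In the control arrays, clone 1 against the mean of the other clones ran from -1.09 to 1.16 on the log2 scale over the members, with a median of -0.016 (-0.033 over all tested genes). In the knockdown arrays it ran from -0.61 to 0.91, with a median of -0.0019. At the most extreme members the clones thus differed by more than the siRNA groups did, while the medians stayed near 0.

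Other genes of mitosis, in a list of 71 that holds no member, had a smaller share below 0 and a median nearer 0, although that difference was not tested. Of 67 tested, 43 (64.2%) had a difference below 0, against 48.1% of all tested genes. The median was -0.022, and 1 passed as lower and none as higher. In 24 of the 67 the knockdown was lower in 3 of 3 clones (18% of all tested genes), and in 6 higher (19.9%). The knockdown arrays all lay below the control arrays for 13 (6.41%) and all above for 1 (6.77%). A lean to lower values was thus not particular to the 48 members. The gene that passed was CEP55, a midbody protein needed for the final cut of cytokinesis. Its signals were 4711, 4896 and 5033 in the knockdown and 7251, 6963 and 7165 in the control, with a wide gap between the groups (log2 -0.55, SE 0.07, limma adjusted p = 0.0037 with the clone and 0.083 without it). Among the mitotic cyclins, CCNB2 had a larger drop than any member, by 0.83 on the log2 scale (SE 0.07, limma adjusted p = 0.000546 with the clone and 0.00949 without it), while CCNB1 had -0.11 and CDK1 -0.14, neither of which passed.

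DNA replication genes, which peak earlier in the cell cycle, had a median of -0.0023 over 43 tested genes, with 22 below 0. ORC4 was the 1 that passed, as lower (-0.56, limma adjusted p = 0.0029). Regulators of the transcription of mitotic genes, a list that also holds CDKN1A, did not pass: of 15 tested, 4 were below 0 and the median was 0.042. FOXM1, the forkhead factor of G2 genes, had 0.089, MYBL2, or B-MYB, had 0.086, and E2F4, an E2F subunit of the DREAM complex, had -0.29 and was lower in 3 of 3 clones (limma adjusted p = 0.238). Of the NF-Y subunits, NFYC had 0.22 and was higher in 3 of 3 clones (limma adjusted p = 0.329). NFYA had -0.20 and was lower in 3 of 3 (limma adjusted p = 0.367), and NFYB had 0.042. CDKN1A, the p21 inhibitor of cyclin-dependent kinases, had 0.016.

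**Figure D4:**
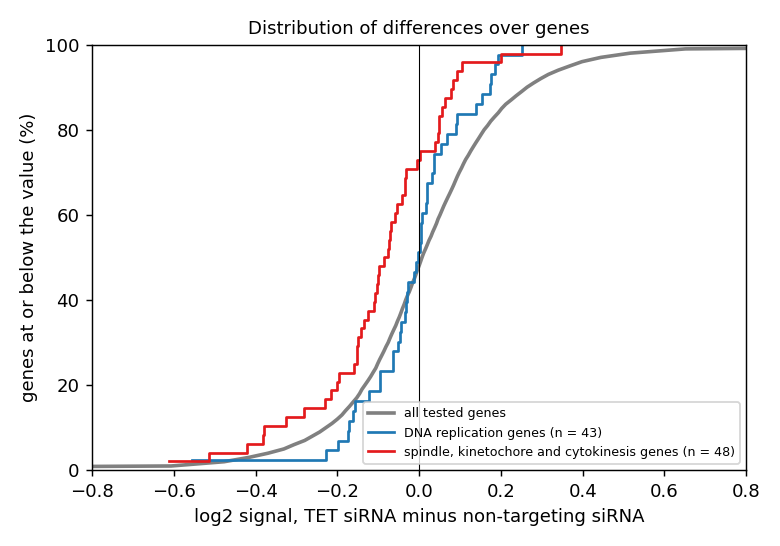
Share of genes (y axis, percent) at or below a given log2 difference (x axis, TET siRNA minus non-targeting siRNA) for the 48 spindle, kinetochore and cytokinesis genes, 43 DNA replication genes and all 12318 tested genes. The median of the 48 genes is -0.081, that of the replication genes -0.0023 and that of all tested genes 0.0070; tested genes beyond the x range are not drawn.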

How the data were processed

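Total RNA of 6 cultures was hybridised as biotin-labelled cRNA, per the labels. The authors deposited linear signal intensities for each probe set, made with MAS5 per the submitters' processing notes, which name no version. The mean intensity without the top and bottom 2% was 1000.13 on each array, so no scaling was added. MAS5 leaves dim probe sets noisy, and detection calls were not used here.

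Of 54613 probe sets that are not controls, 41091 had 1 gene in the platform annotation, and 41037 of those were matched by Entrez ID to RefSeq (GRCh38.p14) for current names. The brighter 50% by mean log2 signal over the 6 arrays were tested (27306 probe sets, geometric mean signal at least 117). In limma 3.58.1 (R 4.3.3), log2 signals were fitted on siRNA group and clone, with trended, robust empirical Bayes moderation, two-sided, with Benjamini-Hochberg adjustment over all tested probe sets. SE and 95% intervals come from this fit, ± is the SD over 3 arrays, and the steps were tested on simulated data. The TET genes were read without the filter.

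The labels give the clone number, which pairs the arrays: deviations from the group means correlated at 0.493, 0.234 and 0.236 for same-clone arrays, and at 0.219 or less for others. The value of 0.219, for knockdown clone 2 with control clone 3, lay close to the same-clone values of clones 2 and 3. The pairing of these clones thus rests on the labels. Nothing in the labels says whether cultures of a clone were handled apart, so p-values measure the spread between these arrays.

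Members and lists were chosen with earlier results of these data known. Values per array are given for members that passed with or without the clone, the 2 of smallest p in each of 7 roles and the 3 with the highest difference. BUB3 was added after its values were seen, and the other members are given mainly by their difference. Alternatives covered the clone term, the filter (none, upper 30%), a pseudocount of 36.1, quantile normalization, median centring, plain moderation, each clone left out, other probe set choices and thresholds of 0.1 and 0.01. Plots used matplotlib 3.10.9.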

Additional observations from a re-analysis of the deposited data

How the results depend on the processing

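The number of members called was 4 with the clone in the fit. In limma it was 0 with no replicate block, 0 with plain moderation, 0 with both changes and 0 with no filter on dim probe sets, where 9, 8, 6 and 16 members had an unadjusted p under 0.05. Over all genes, 2 of 12318, 0, 0 and 48 of 19775 were called, so the counts of 0 with plain moderation hold for every gene tested. The unadjusted p was under 0.05 for 857, 1331 and 735 of 12318 genes, and with no filter for 2249 of 19775. With no filter MKI67 and NUSAP1 had adjusted p-values of 0.0530 and 0.0516. The number of members called was 2 with the mean of all tested probe sets of a gene (NUSAP1 and SKA1), where 99 of 12318 genes were called. It was 1 without probe sets of shared probes, where 162 of 9588 genes were called, and 1 at a threshold of 0.01. With 1 clone left out it ranged from 0 (without clone 3) to 5 (without clone 2), with 2 without clone 1; over all genes 40, 379 and 72 were called, against 162 with all clones. Without clone 3, 7 members had an unadjusted p under 0.05, as did 1099 of 12318 genes. With the upper 30%, the pseudocount, median centring, quantile normalization or a threshold of 0.1 the number of members called was 3 or 4. Over all genes, 220 of 8934 were called with the upper 30%. With the pseudocount, median centring and quantile normalization 178, 201 and 136 of 12318 were called. Counts over all genes at thresholds of 0.1 and 0.01 are not given here.

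Directions changed less. The count of members below 0 was 32 to 38 of 46 to 48, and 22 of 34 without probe sets of shared probes. The median was -0.11 after median centring, -0.065 without shared probes and -0.10 to -0.083 with a clone left out. Of the other mitotic genes 1 was called, 0 with no replicate block, 0 with plain moderation, 0 with both, and 1 to 2 with a clone left out. Of 197 values of named genes under the alternatives, 172 kept their direction and side of the threshold, 22 lost the call and 1 (AURKB without clone 2) gained it. Only the 4 called genes could lose a call, so the pooled count does not measure how stable the calls were. CENPF kept its call under 4 alternatives and lost it under 8. MKI67 kept it under 6 and lost it under 5, NUSAP1 7 and 5, and SKA1 7 and 4. CENPI alone turned its sign, to -0.023 with the mean of its probe sets and to -0.14 without clone 3. It stayed positive without clone 1 (0.19) and without clone 2 (0.27). The causes were not tested. Leaving out 1 array of a pair equals leaving out the clone. The number of arrays limits the precision.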
